A study of Mus musculus with 5 samples.

Results

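The Hoxd cluster was examined in mouse epiblast stem cells as the window of 140 kb from 74.48 to 74.62 Mb on chromosome 2 of mm9, where Evx2 and Hoxd13 lie at the low and Hoxd1 at the high coordinate. The members were the 9 genes Hoxd1, Hoxd3, Hoxd4, Hoxd8, Hoxd9, Hoxd10, Hoxd11, Hoxd12 and Hoxd13 and all deposited peaks that touched this window, 111 of 156288 peaks in the series. The series maps histone H3 modifications by chromatin immunoprecipitation and sequencing in EpiSC9, a line in the primed state of pluripotency. All libraries came from this line without further treatment, cultured with 10 ng/ml FGF2 on irradiated embryonic fibroblasts, and each precipitation used 5000000 crosslinked cells. There was 1 library each for H3K4me1, H3K4me3, H3K27ac and H3K27me3, so the values describe these libraries and have no replicate error.

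Hox genes encode homeodomain transcription factors that give cells their position along the body axis and the limbs. In the Hoxd cluster they are switched on one after another, from Hoxd1 towards Hoxd13, and the late genes pattern digits and genitalia. Before activation, Polycomb complexes hold the cluster in H3K27me3, a mark of silencing. H3K4me3 marks promoters, and its presence together with H3K27me3 is called bivalent. H3K4me1 flanks promoters and marks enhancers, while H3K27ac marks promoters and enhancers in use.

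In the RefSeq table (GRCm38.p6) the protein-coding genes are listed in the order Lnpk, Evx2, Hoxd13, Hoxd12, Hoxd11, Hoxd10, Hoxd9, Hoxd8, Hoxd3, Hoxd4, Hoxd1 and Mtx2. The extent of each gene was not examined, so the list does not settle how Hoxd3 and Hoxd4 lie relative to each other. Lnpk encodes a protein of the endoplasmic reticulum, Evx2 a homeodomain factor, and Mtx2 a protein of mitochondrial import. The peak lists name no genes and their build differs from that of the table, so peaks are given by mm9 position and are not assigned to single genes. The sequences before the starts of Evx2 and of a late, a middle and an early Hoxd gene are shown because H3K4me3 and Polycomb complexes both favour DNA rich in the dinucleotide CG. Each line gives the 250 bases before the annotated start on the gene's strand, 5′ to 3′, with CG in capitals.
Evx2: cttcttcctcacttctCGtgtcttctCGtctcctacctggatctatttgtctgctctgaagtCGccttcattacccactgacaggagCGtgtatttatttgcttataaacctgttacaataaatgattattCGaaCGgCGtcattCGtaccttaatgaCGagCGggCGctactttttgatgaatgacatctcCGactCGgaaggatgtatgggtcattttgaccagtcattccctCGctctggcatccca
Hoxd13: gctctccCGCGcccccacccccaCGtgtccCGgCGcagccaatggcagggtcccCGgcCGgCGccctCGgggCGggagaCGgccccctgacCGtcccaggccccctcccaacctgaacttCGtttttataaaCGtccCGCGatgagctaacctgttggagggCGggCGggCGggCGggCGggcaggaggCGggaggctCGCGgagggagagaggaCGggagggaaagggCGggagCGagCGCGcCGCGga
Hoxd9: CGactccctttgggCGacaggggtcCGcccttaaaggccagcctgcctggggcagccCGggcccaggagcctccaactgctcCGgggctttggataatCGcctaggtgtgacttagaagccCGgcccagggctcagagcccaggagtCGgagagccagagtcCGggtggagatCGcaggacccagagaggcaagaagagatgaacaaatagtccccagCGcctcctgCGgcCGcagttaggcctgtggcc
Hoxd1: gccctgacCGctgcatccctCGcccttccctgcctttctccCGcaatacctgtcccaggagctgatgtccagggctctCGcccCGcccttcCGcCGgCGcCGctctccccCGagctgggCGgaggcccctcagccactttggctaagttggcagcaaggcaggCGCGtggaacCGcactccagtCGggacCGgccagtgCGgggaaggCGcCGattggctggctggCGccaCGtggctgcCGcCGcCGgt
Hoxd13 held 31 CG in these bases, and 5.19% of the 32851 promoters in the table held as many or more. Hoxd1 held 24 CG (12% of promoters held as many). Evx2 with 14 (29.4%) and Hoxd9 with 13 (31.5%) lay within the middle range of the table, whose median was 6 and whose quartiles were 2 and 16. Among the others, Hoxd10 held 20, Hoxd3 12, Hoxd12 10, Hoxd8 6 and Hoxd4 3. Hoxd11 had 2 annotated starts, with 2 CG before one and 20 before the other. The Hoxd starts therefore spanned CG-poor and CG-rich sequence.

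H3K27me3 covered most of the cluster, and H3K27ac had 0 peaks in it. The H3K27me3 list placed 40 peaks in the window, which covered 103 kb or 73.7% of it, against 0.612% of chromosome 2, a 120-fold higher share. H3K4me3 had 40 peaks over 26.1 kb (18.6% of the window, 12.6-fold above chromosome 2), and H3K4me1 had 31 peaks over 49.3 kb (35.2%, 5.04-fold). Of all tiles of 140 kb along the genome, 52.1% held no H3K27ac peak, so that absence alone is common. Among the 1955 tiles with 5 or more H3K4me3 peaks, 7.42% held none. Lists hold only peaks above the caller's threshold, so weaker acetylation would not be seen.

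**Figure D1:**
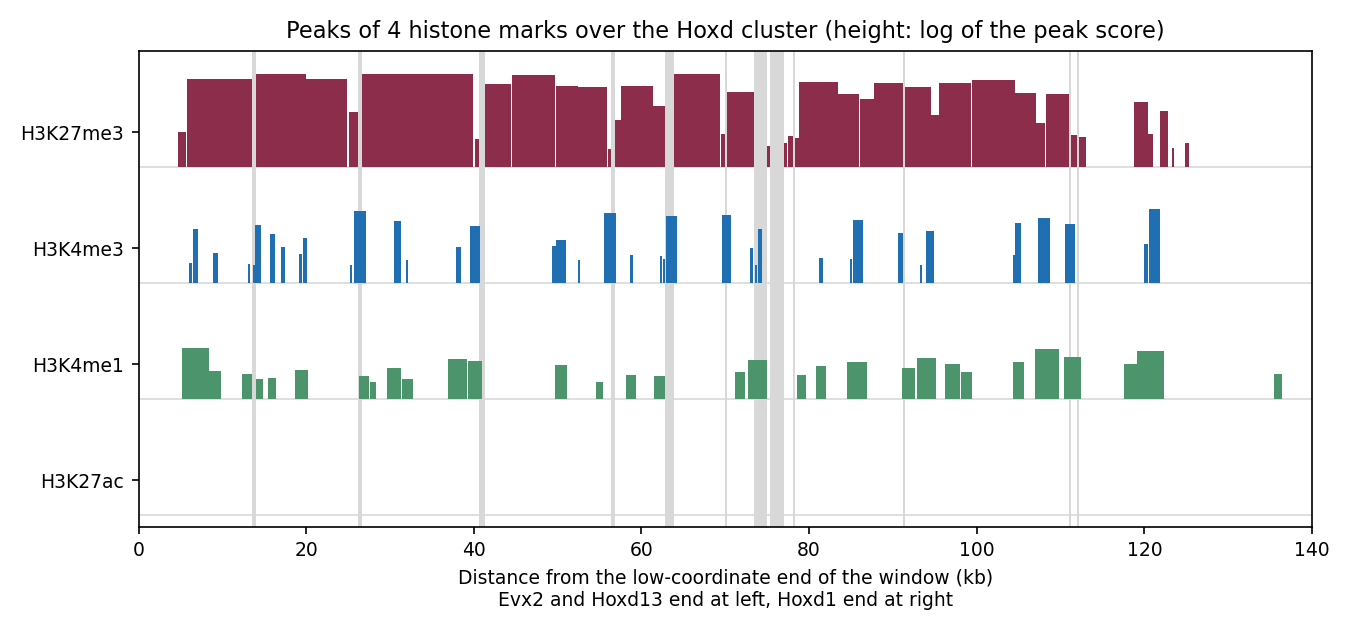
Map of the Hoxd window, with distance from its low-coordinate end in kb on the x axis and 1 track per mark. Each block is a peak, its height follows the logarithm of the peak score within the list, and grey bands are H3K27me3 gaps of 200 bp or more inside the domain. The H3K27me3 track is nearly continuous from 4.67 to 113 kb, H3K4me3 peaks are scattered along it, and the H3K27ac track is empty.

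H3K27me3 formed a domain from 74484673 to 74593091, in which 35 peaks covered 99.16 kb of a 108.4 kb span (91.5%). A smaller domain of 5 peaks followed 5722 bp further on, at 74598814 to 74605330, with 3.99 kb covered. The widest peak lay at 74506702 to 74519928. It measured 13227 bp and was the 9th widest of the 16975 H3K27me3 peaks. The next widest, at 74485792 to 74493556 (7765 bp) and at 74493984 to 74499997 (6014 bp), lay on its low side, towards the Evx2 and Hoxd13 end, with 2 smaller peaks in between. The score is the authors' and ranks peaks within a list. It stops near 3100, a level reached by 68 H3K27me3 peaks in all and by 3 in the window. The first H3K27me3 peak began at 74484673 with a score of 132.96, and the last, at 74604890 to 74605330, scored 69.7. The median H3K27me3 width in the window was 1674.5 bp, where the list had 405 bp, and the median score was 728.33, where the list had 69.08. H3K4me3 was met by 29 of the 40 H3K27me3 peaks (72.5%, 57.2 to 83.9), against 33.2% of the list, and H3K4me1 by 28 (70%, 54.6 to 81.9), against 41.3%. These contrasts were not adjusted for width, and the wider peaks of the window can meet another mark more often. H3K27ac was met by 1.27% of the list. With 0 H3K27ac peaks in the window, it could be met by none of the 40.

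The mark was not even along the cluster. In successive parts of 20 kb from the low end, H3K27me3 covered 73.6%, 96.5%, 91.4%, 74.7%, 97%, 68.6% and 14% of the bases. The first part includes 4.67 kb before the domain begins, the sixth runs past the domain end at 74593091, and the last lies wholly past it. Of the 4 parts wholly inside the domain, the fourth from the low end had the lowest cover. The highest H3K27me3 score per part was 3100, 3100, 3010.53, 3100, 2000.09, 2185.02 and 402.74, so scores of 3010.53 or more were found in the 4 parts towards Hoxd13 and not in the 3 towards Hoxd1. Weak peaks occurred between the strong ones too, and the lowest score of the window, 51.17, was at 74535989 to 74536346 in the third part.

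The domain held 34 gaps in H3K27me3 that came to 9.26 kb. They ranged from 5 to 1634 bp with a median of 133 bp, and only 3 reached 1 kb. All 3 lay in the middle of the window. The gap at 74542848 to 74543886 (1039 bp) was under H3K4me3 for 95% of its length and under H3K4me1 for 1.92%. The gap at 74553401 to 74555034 (1634 bp) was under H3K4me3 for 49% and under H3K4me1 for 94.4%. The gap at 74555336 to 74556960 (1625 bp) held no other mark. Around the last gap, from 74555035 to 74558816, H3K27me3 consisted of 4 narrow peaks of 301 to 626 bp that scored 60.66 to 104.77.

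Almost every H3K4me3 peak of the cluster lay on H3K27me3. The overlap held for 37 of 40 peaks (92.5%, 95% interval 80.1 to 97.4), while 16.6% of the whole H3K4me3 list overlapped H3K27me3. H3K27me3 covered 91.5% of the domain, with a median gap of 133 bp, so a peak there would share a base with it almost wherever it lay. The contrast with the list therefore says little beyond that cover. With 0 H3K27ac peaks in the window, none of the 40 could touch H3K27ac, while 49.2% of the list did. H3K4me1 lay on 33 of them (82.5%), which is near the 83.2% of the list. The H3K4me3 peaks were narrow and weak. Their median width was 512 bp and their median score 154.44. Over all 4817 H3K4me3 peaks of the list on H3K27me3, the medians were 1256 bp and 988.3, and 13.6% scored 3100 or more. In the Hoxd window 0 did, and 2 of 40 reached the median score of the list, 888.4.

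A few H3K4me3 peaks stood above this low level. The highest score, 1086.52, belonged to the last peak of the window, at 74600517 to 74601861 (1345 bp) in the small second domain. A score of 1001.93 was reached at 74505758 to 74507173, the widest peak with 1416 bp. Scores of 880.9 at 74535585 to 74536923 (1339 bp), 776.62 at 74549642 to 74550697 (1056 bp) and 751.45 at 74542900 to 74544213 (1314 bp) came next. These 5 peaks were spread from 25.76 to 120.5 kb along the window, so no single end of the cluster held the strong H3K4me3. The remaining peak among the 5 widest, at 74587306 to 74588715 (1410 bp), scored 666.82. The first H3K4me3 peak, at 74485971 to 74486346, scored 58.98.

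The strongest H3K4me3 peaks reached over interruptions of H3K27me3. All 5 extended past H3K27me3, with 59%, 34.2%, 50.1%, 21.2% and 75.1% of their width outside it in order of falling score. Of the other 35, 12 extended past H3K27me3 and 3 lay wholly outside it, and the median share outside over the 35 was 0%. The 20 H3K4me3 peaks that lay wholly under H3K27me3 had a median score of 88.16 and a median width of 379 bp. The 17 that lay partly under it had medians of 472.5 and 1056 bp. Across the 40 peaks, Spearman's rho of score with the share of width outside H3K27me3 was 0.46, and with width itself 0.919. These points share 1 library and 1 locus, and a wider peak meets an edge more often, so the values are a description. Peaks that extended past H3K27me3 made up 17 of the 37 on it (45.9%, 31 to 61.6), whereas the share over the whole list was 77.4%.

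**Figure D2:**
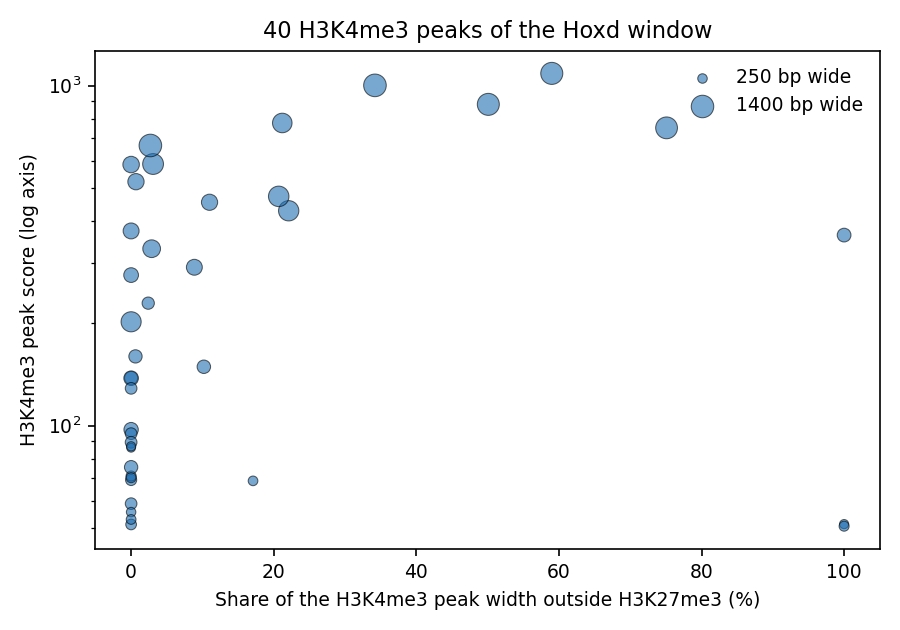
The 40 H3K4me3 peaks of the Hoxd window, with the share of the peak width outside H3K27me3 in percent on the x axis and the peak score on a logarithmic y axis. Each point is a peak and its area follows the width; the 5 points with the highest scores, 751.45 to 1086.52, all lie at 21.2% or more.

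The 3 H3K4me3 peaks without any H3K27me3 sat inside gaps. One, at 74493653 to 74493884, was 232 bp wide and scored 51.35. The others, at 74553518 to 74553794 (score 50.63) and at 74553886 to 74554408 (363.48), lay in the gap of 1634 bp and overlapped H3K4me1. Counted by bases, H3K4me3 covered 45.8% of the gap bases of the domain and 20.2% of its bases under H3K27me3. H3K4me1 covered 39.6% and 40.2%, so it did not separate the kinds of sequence in this way. Of the 12 gaps of 200 bp or more, 9 held H3K4me3, and 4 of them lay wholly under it.

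H3K4me1 in the cluster also lay on H3K27me3. That was true of 30 of 31 peaks (96.8%, 83.8 to 99.4), against 6.21% of the H3K4me1 list. As for H3K4me3, this overlap is nearly fixed by the H3K27me3 cover of 91.5% of the domain. H3K4me3 was met by 23 of them (74.2%, 56.8 to 86.3), against 31.4% of the list. H3K27ac was met by 30.9% of the list, and with 0 peaks in the window it could be met by none here. The H3K4me1 peak without H3K27me3 was the last in the window, at 74615441 to 74616452, with a score of 77.05. The first, at 74485178 to 74488383, had the highest score, 318.64. Scores of 297.43 at 74586993 to 74589779 and 264.11 at 74599124 to 74602359 followed. The highest H3K4me1 score per 20 kb part was 318.64, 171.01, 155.05, 162.94, 180.75, 297.43 and 264.11, so the highest-scoring peaks lay towards both ends of the cluster. Weak peaks were found at the ends too, with scores such as 58.03 in the first part and 77.05 in the last.

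Seen by base, 40.2% of the window carried H3K27me3 alone and 18.4% carried it with H3K4me1. All 3 methylation marks met on 12%, and H3K27me3 with H3K4me3 alone on 3.07%. No listed mark covered 19.8%. H3K4me3 without H3K27me3 covered 2.37 kb alone and 2.67 kb with H3K4me1. Bases under peaks of both marks were thus a minority: 20.4% of the bases of the window under H3K27me3 also lay under H3K4me3. The marks come from separate libraries, so this overlap does not show that they lay together in the same cells.

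Set beside the other Hox domains, the Hoxd domain was the shortest in covered length, had the most H3K4me3 peaks per 10 kb and lacked H3K27ac as the Hoxc domain did. The others were taken as the domains with the largest cover on chromosomes 6, 11 and 15, which hold Hoxa, Hoxb and Hoxc; their genes were not checked on mm9. Another long domain lay 40.8 kb below the Hoxb domain (43.7 kb covered, 10 H3K4me3 and 0 H3K27ac peaks), and whether it belongs to Hoxb is not known here, so the Hoxb values cover the larger domain alone. By covered length the Hoxd domain ranked 4th of 7561 in the genome, behind Hoxc with 154 kb, Hoxa with 121.1 kb and Hoxb with 107.7 kb. H3K4me3 peaks came at 3.5 per 10 kb in Hoxd, 3.18 in Hoxa, 2.63 in Hoxb and 1.84 in Hoxc. With H3K4me3 peaks within 500 bp joined, the values were 2.4, 2.09, 1.91 and 1.24 in the same order. By share of the span under H3K4me3, Hoxd with 22.4% lay below Hoxa with 28.1% and Hoxb with 24.3%, and above Hoxc with 14.1%. The highest H3K4me3 score was 1001.93 in Hoxd, 1539.3 in Hoxc, 2815.97 in Hoxb and 3100 in Hoxa. H3K27ac peaks numbered 0 in Hoxd and Hoxc, 8 in Hoxa and 10 in Hoxb. In Hoxa 7 and in Hoxb 5 of the H3K4me3 peaks touched acetylation. The median H3K27me3 score was 1025.2 in Hoxd, 1157.1 in Hoxa, 352.77 in Hoxb and 268.21 in Hoxc. Each of these is 1 locus in 1 library, so the differences have no test.

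The cover of gaps by H3K4me3 varied between these domains. It was 78.9% in Hoxa, 45.8% in Hoxd and 32.5% in Hoxb, each above the cover of bases under H3K27me3 in the same domain (24.7%, 20.2% and 22.9%). In Hoxc it was lower, with 8.02% of gap bases and 14.6% of covered bases. The domain-wide direction seen in Hoxd is also near the background, because 112 of the 215 long domains (52.1%) had the larger share in their gaps.

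**Figure D3:**
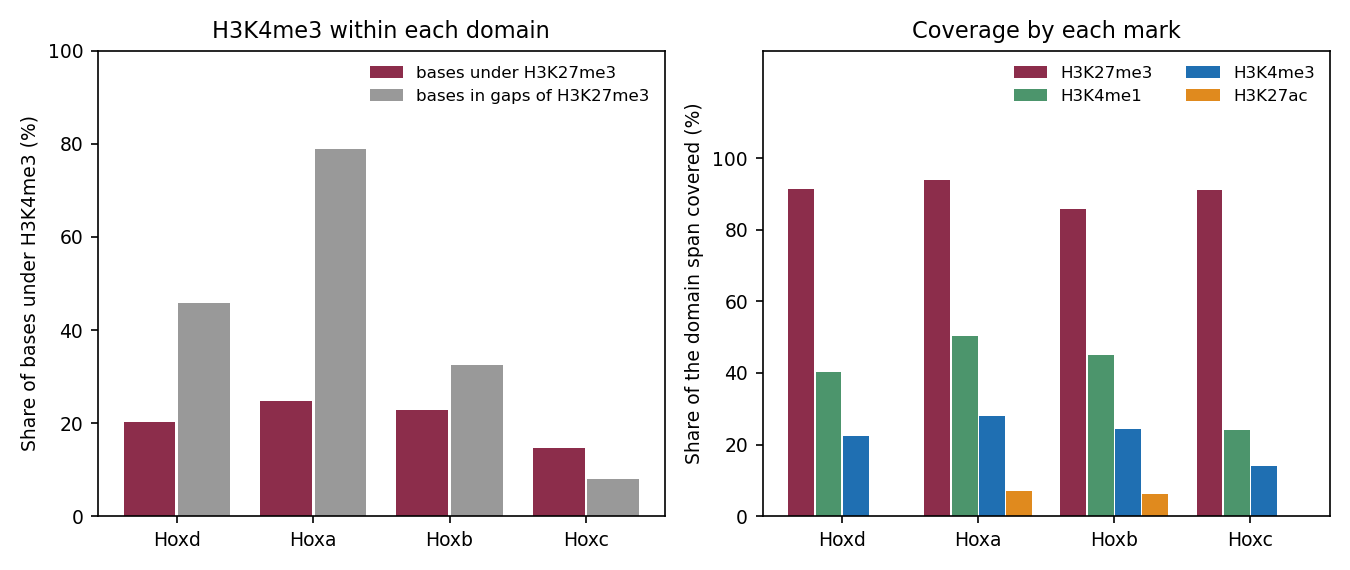
Left, the share of bases under H3K4me3 in percent, for bases under H3K27me3 and bases in its gaps, in the 4 Hox domains; right, the share of each domain span covered by each mark in percent. Hoxd shows 20.2% against 45.8% on the left, and on the right 40.2% H3K4me1, 22.4% H3K4me3 and no H3K27ac.

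Among the 215 H3K27me3 domains that covered 10 kb or more, lack of H3K27ac was the rule, with 92.6% free of it. The Hoxd domain was the second largest of these 199. It held 38 H3K4me3 peaks, the second highest number after Hoxa, against a median of 6. Its density of 3.5 per 10 kb, however, ranked only 73rd (median 2.95, quartiles 2.31 and 4.04). H3K4me3 covered 22.4% of the span, rank 169 (median 32.8%), and the median H3K4me3 score of 143.58 ranked 186th (median 374). The H3K27me3 peaks of the domain lay at the other side of the range, since their median score of 1025.2 ranked 18th (median 264). The Hoxd domain thus combined high H3K27me3 scores with low H3K4me3 scores, as a description of these 2 libraries. The Hoxa domain did so too, with medians of 1157.1 for H3K27me3 and 197.35 for H3K4me3. In Hoxb and Hoxc the H3K4me3 medians were likewise low, at 181.48 and 180.5, with H3K27me3 medians of 352.77 and 268.21. A H3K4me3 score of 3100 or more was found in 37 long domains (17.2%) and not in Hoxd.

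**Figure D4:**
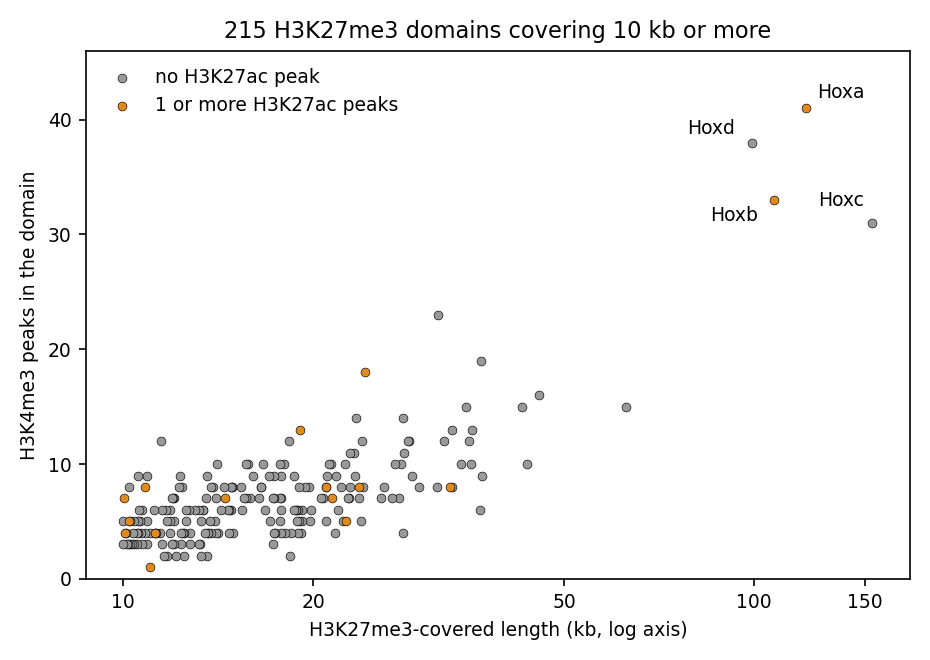
The 215 H3K27me3 domains of 10 kb or more, with covered length in kb on a logarithmic x axis and the number of H3K4me3 peaks on the y axis; each point is a domain, orange where it holds H3K27ac. The 4 Hox domains stand to the upper right, with Hoxd at 99.16 kb and 38 peaks.

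The nearest H3K27ac lay outside the cluster on both sides, on or beside H3K4me3 peaks that scored 3059.21 and 3100. On the low side, towards Lnpk, the closest H3K27ac peak was at 74417109 to 74417664 (score 133.56), 67 kb from the domain. It lay on a H3K4me3 peak that scored 887.78, next to another at 74415769 to 74417049 with 3100. On the high side, towards Mtx2, it was at 74663382 to 74664616 (score 471.53), 70.3 kb away, on a H3K4me3 peak that scored 3059.21. The H3K4me3 peaks at 3059.21 and 3100 scored higher than all 40 peaks inside the window and did not touch H3K27me3.

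Both flanks had fewer H3K4me3 and H3K4me1 peaks per length than the domain. For H3K27me3 the same follows from the definition, since the domain ends where its peaks stop. Work in mouse limbs places long-range enhancers of Hoxd genes in the gene-poor DNA on either side of the cluster. Within 1 Mb of the domain, the low side held 33 H3K4me1, 8 H3K4me3, 6 H3K27ac and 1 H3K27me3 peaks. The high side held 49, 14, 9 and 14. These counts include the small second domain of the window, with 2 H3K4me1, 2 H3K4me3 and 5 H3K27me3 peaks. H3K4me1 was found in 9 of 10 bins of 100 kb on the low side and in 10 of 10 on the high side, and H3K27ac in 3 and 2 bins. Bins without H3K27ac are common, since 52.1% of the longer tiles of 140 kb along the genome held none. The bins with the most H3K4me1 were 500 to 600 kb away on the low side (8 peaks, with 1 H3K27ac) and 900 to 1000 kb away on the high side (12 peaks, with 8 H3K27ac). Chromosome 2 as a whole had 3.59 H3K4me1, 1.26 H3K4me3, 1.47 H3K27ac and 0.62 H3K27me3 peaks per 100 kb. Between 100 and 900 kb on the high side, H3K4me1 had 1 to 7 peaks per bin and H3K27ac 0 peaks.

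**Figure D5:**
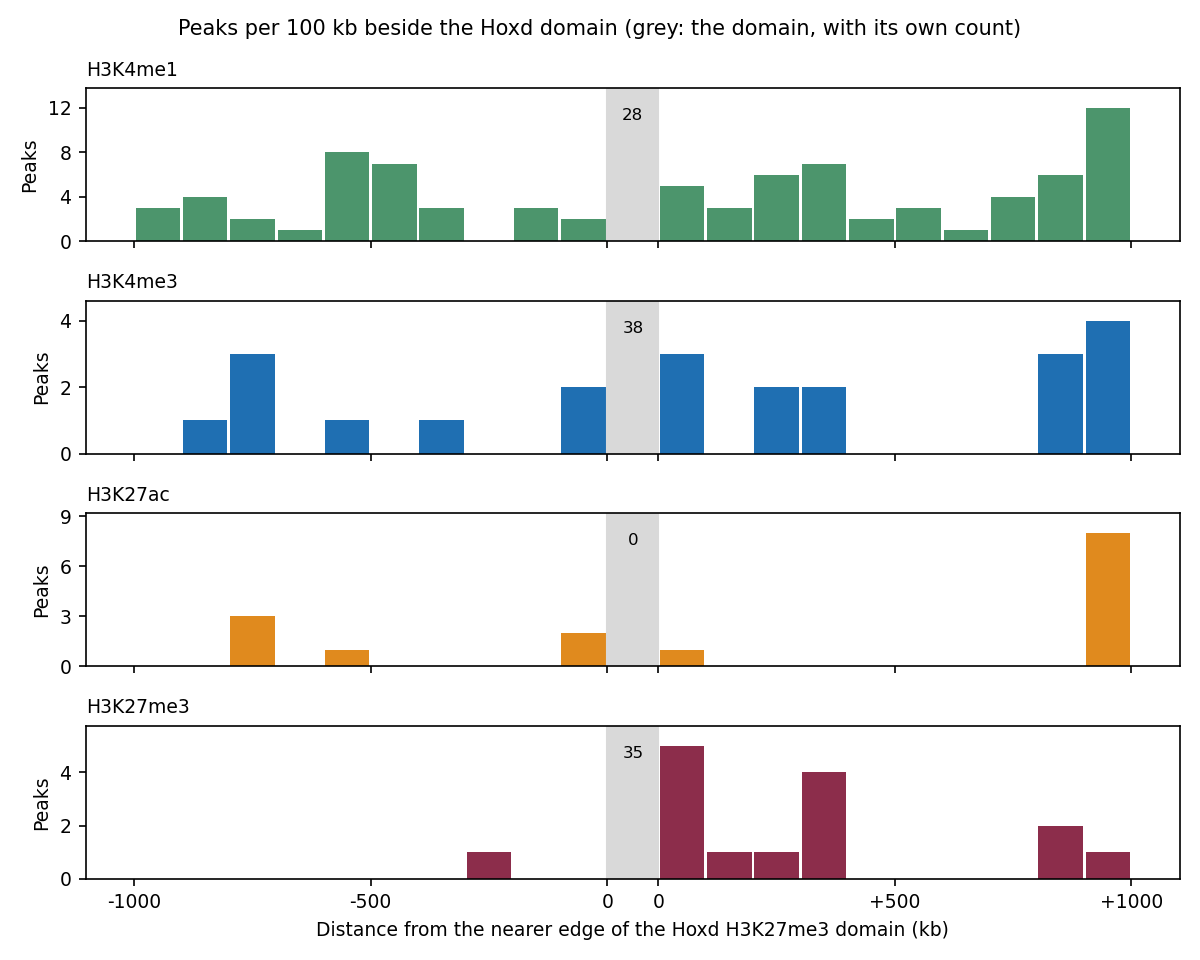
Peaks per bin of 100 kb up to 1000 kb from each edge of the Hoxd domain, 1 panel per mark; the x axis is the distance from the nearer edge in kb and the grey block is the domain with its own number of peaks. H3K27ac is empty from 100 to 900 kb on the high side, while H3K4me1 has 1 to 7 peaks in each bin there.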

How the data were processed

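The 4 lists hold the peak intervals of 1 chromatin immunoprecipitation library per mark in EpiSC9 cells, each with a peak score, as the authors deposited them. Bowtie 0.12.9, MACS 1.4, Cufflinks and the build mm9 are named in the submitters' processing notes, without role or order. The control, the handling of duplicates and the calling threshold are not stated there. Scores served only within a list. The input library was not analysed here, read depth is unknown, and no paired or replicate analysis exists for 1 library per mark.

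BED starts were raised by 1. Peaks overlapped when they shared at least 1 bp, and H3K27me3 peaks within 5 kb were joined into a domain. Long domains covered 10 kb or more. Intervals are 95% Wilson intervals over peaks, which cover counting only. No test between conditions was possible. The window, members and settings were chosen with earlier results of these data known. Settings tried beside these were a median score, a score of 100, equal list lengths, 50% overlap, and other joining and gap lengths.

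Named regions were fixed by rule: gaps of 1 kb or more, the 5 widest and 5 highest scoring H3K4me3 peaks, the 3 widest H3K27me3 peaks, peaks without H3K27me3, the first and last peak of a mark, and the nearest H3K27ac peaks. Gaps from 200 bp and the share of gap bases under H3K4me3 were added after the data were examined. Gene order and promoters come from RefSeq on GRCm38.p6; all 9 Hoxd genes and Evx2 matched. An annotation of mm9 was not used here, so epiblast and feeder marker genes were not checked. Python 3.11.15, numpy 2.4.6, pandas 2.3.3, scipy 1.17.1 and matplotlib 3.10.9 were used. Interval counting was tested on simulated data and was exact in 50 of 50 runs.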

Additional observations from a re-analysis of the deposited data

How the results depend on the processing

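With 1 library per mark, no replicate could be left out. No paired analysis was possible because each mark has 1 library. H3K27ac had 0 peaks under all 4 alternatives tried for it. These only left peaks out or narrowed the window, so they could not have given another count. Counts, distances and densities were taken as stable within 1.5 times the reported value, and shares within its 95% Wilson interval, which is very narrow for shares of bases. By this measure 26 of 60 values under alternatives were stable and 34 moved, and 6 of the 60 were added after the data were examined. Joining H3K4me3 peaks within 500 bp left 27 in the window; the same joining in the other Hox domains was also added later. Most of the cluster's H3K4me3 and H3K4me1 peaks score low in their lists. When peaks under their list's median score were left out, H3K4me3 fell to 2 peaks (0.0922 per 10 kb) and H3K4me1 to 12, with H3K27me3 on 100% of both. H3K27me3 then covered 73%, H3K4me3 lay on 1.45% of it and on 4.88% of gap bases, and the nearest H3K27ac on the low side was 522 kb away. At a score of 100 or more there were 24 H3K4me3 peaks (2.05 per 10 kb) and 16 H3K4me1 peaks, 100% of the latter on H3K27me3, which covered 71.1%, and H3K4me3 lay on 15.7% of it and on 41.5% of gap bases. With equal numbers of top-scoring peaks there were 10 H3K4me3 peaks (0.83 per 10 kb) and 3 H3K4me1 peaks, 100% of each on H3K27me3, with H3K4me3 on 8% of H3K27me3 bases and 29% of gap bases, and the low side distance was 522 kb. Fewer peaks enter each of these settings by construction. Over the span of the domain, H3K27me3 covered 91.5% and lay on 100% of H3K4me1 peaks. Joining within 1 kb ended the domain at the first long gap, which left 0 gaps of 1 kb, 59.6% of gap bases under H3K4me3 and 121 kb to H3K27ac on the high side; the longest joining distance tried gave 5 gaps and 28.8%. Gaps numbered 0, 5 and 12 with minimum lengths of 2 kb, 500 bp and 200 bp. Gap bases were more often under H3K4me3 than covered bases of the window in each of the 3 score settings. At the median score this rests on the 2 H3K4me3 peaks left in the window, and the score cuts also remove H3K27me3 peaks and so change the gaps.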

Other observations

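The stretch without H3K27ac around the Hoxd domain ran from 74417665 to 74663381, or 245.7 kb. Stretches of this length are not rare, since 2288 of the 33580 intervals between neighbouring H3K27ac peaks (6.81%) were as long, against a median of 12.9 kb. Its content of H3K4me3 ranked second of these intervals: 41 H3K4me3 peaks touched it, and only the stretch on chromosome 15 at 102506030 to 102964480, which contains the Hoxc domain, was touched by more, with 42. The third in this order, on chromosome 6 at 52126842 to 52389253, was touched by 37 and includes part of the Hoxa domain. The median over all intervals was 0. The small H3K27me3 domain beyond the high end of the Hoxd domain held 2 H3K4me3 peaks, 1 of which was the highest scoring of the window, and 28.2% of its span lay under H3K4me3.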
